A study of Homo sapiens with 48 samples.

Results

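Retinoic acid is the active form of vitamin A, and 9 human genes that make it, carry it, sense it or destroy it were followed here through 48 RNA-seq libraries of bladder cancer cells. The 9 genes were taken by symbol from a count table of 35535 genes: ALDH1A1 and ALDH1A3 for synthesis, CRABP1 and CRABP2 as carriers, RARA, RARB and RARG as receptors, and CYP26A1 and CYP26B1 for clearance. The study exposed 8 established bladder cancer lines (639V, HT1197, HT1376, KU1919, SW780, T24, TCCSUP, VMCUB) to CPI-0209 at 250 nM, over 4 days, and set them against DMSO, the solvent control. Each line and treatment had 3 libraries. CPI-0209 is an inhibitor of EZH2, the enzyme of the Polycomb repressive complex that methylates histone H3 and keeps developmental genes silent. Each line comes from 1 tumour, and within a line no genotype or agent other than CPI-0209 separates the groups. The growth media differed: MEM for HT1197, HT1376 and TCCSUP, DMEM for SW780, VMCUB and 639V, RPMI1640 for KU1919 and a McCoy medium for T24, all with serum. Line and medium cannot be told apart where lines are compared. Nothing in the labels says that the 3 libraries came from separate cultures, so the p-values measure the spread between these libraries, which may be technical.

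Cells take up retinol and oxidise it to retinal, and the ALDH1A enzymes oxidise retinal to retinoic acid, a step that cannot be reversed. CRABP proteins hold retinoic acid in the cytosol, and CRABP2 hands it to the RAR receptors, which bind DNA with RXR partners at paired half-sites. RARB and CYP26A1 are textbook genes induced by retinoic acid itself, and the CYP26 enzymes then oxidise it to products that are cleared. In the urothelium, the lining of the bladder, vitamin A is known to keep the epithelium from turning into a keratinised squamous layer.

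Library totals ran from 26481418 to 50916911 counts. Levels below are CPM (counts scaled to 1 common library size), after an adjustment that equalises the bulk of genes between libraries (TMM), and errors on levels are SDs over 3 libraries. Some libraries stood apart from the other 2 of their group, measured as genes that lay over 2-fold from both of them: 346 genes for KU1919 CPI-0209 replicate 1, 231 for T24 CPI-0209 replicate 3, 124 to 165 for the 3 T24 DMSO libraries, and 154 and 96 for VMCUB DMSO replicates 2 and 3, against at most 80 in any other library. Results in KU1919, T24 and VMCUB are therefore also given without these libraries where that changes a call. No pair of libraries within a group agreed within sampling noise, with a chi-square per degree of freedom of 2.13 to 126. The epithelial keratins KRT8 and KRT18 were present in every library, but EPCAM reached at most 1.501 CPM in 639V, 5.37 CPM in TCCSUP and 9.47 CPM in T24, against at least 32.0 CPM in the other lines. Other epithelial markers ordered these lines differently. CDH1 was 51.8 to 84.1 CPM in TCCSUP, against at most 0.941 CPM in 639V and 6.96 CPM in T24. KRT7 was 2667 to 3234 CPM in T24 and 612 to 949 CPM in 639V, against 35.0 to 39.7 CPM in TCCSUP. TCCSUP was apart in its markers: its 11 fibroblast markers summed to 12281 to 12726 CPM with CPI-0209 and 8523 to 9847 CPM in DMSO, against at most 1068 CPM in any library of another line. COL1A1 alone gave 3868 to 6413 CPM of this sum in TCCSUP. VIM, of the same list, was only 2.09 to 2.90 CPM there, against 524 to 687 CPM in 639V. TCCSUP also held 20.9 to 28.8 CPM of the leukocyte gene PTPRC, which stayed at or below 0.657 CPM elsewhere. Fibroblast markers called higher with CPI-0209 numbered 5 of 11 tested in HT1197, 5 of 8 in HT1376, 4 of 6 in KU1919 and 6 of 9 in SW780. They numbered 4 of 7 in T24, 6 of 10 in 639V, 6 of 11 in TCCSUP and 5 of 7 in VMCUB. Leukocyte markers called higher numbered 4 of 8 in HT1376, 2 of 5 in TCCSUP, 1 of 4 in T24 and VMCUB, and 0 elsewhere. For endothelial markers it was 3 of 4 in HT1376, 3 of 5 in 639V, 2 of 4 in T24, 1 of 3 in KU1919, 1 of 4 in TCCSUP and VMCUB, and 0 elsewhere. Lower calls per line numbered 0 to 2 for fibroblast, 0 to 2 for leukocyte and 0 to 3 for endothelial markers, the last in SW780, where no endothelial marker was higher. Of the urothelial and epithelial markers, 1 of 17 tested in T24 to 10 of 19 in HT1376 were higher. Lower ones ran from 1 of 19 in HT1376 and KU1919 to 12 of 20 in SW780, where 4 were higher. Of all genes, 11.8% were higher and 7.8% lower in HT1197, 23.7% and 16% in HT1376, and 9.3% and 2.4% in KU1919. The shares were 30.8% and 30.3% in SW780, 9.37% and 0.93% in T24, and 22.1% and 17.1% in 639V. They were 25.7% and 23% in TCCSUP, and 16.4% and 11% in VMCUB. The part of these cell types in the results was not tested. EZH2 mRNA itself had a log2 fold change over all lines of 0.03 ± 0.03 (SE, edgeR adjusted p = 0.513), but was called higher in TCCSUP (0.16 ± 0.05, edgeR adjusted p = 0.0173) and HT1376 (0.15 ± 0.05, edgeR adjusted p = 0.0377).

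Before the values, the DNA upstream of RARB and CYP26A1 is shown, since these are the members known to answer retinoic acid directly. RefSeq promoter windows on GRCh38.p14 were found for all 9 genes, 15 windows in total. RARB has 4 of them and CYP26A1 has 2, and in each gene the element lies in 1 window only. The 250 bases before the RARB start that holds the element, chr3:25428013-25428262 on the plus strand, are given with the matched motif in capitals. The capitals take in the bases between the paired half-sites.

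RARB: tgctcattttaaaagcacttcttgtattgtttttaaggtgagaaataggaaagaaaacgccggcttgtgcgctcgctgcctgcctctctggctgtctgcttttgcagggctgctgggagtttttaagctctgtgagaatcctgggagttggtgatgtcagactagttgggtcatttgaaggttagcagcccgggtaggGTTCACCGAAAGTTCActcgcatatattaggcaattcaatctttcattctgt

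The match of RARB lies 52 to 37 bases before that start, which is inside the annotated gene and not its outermost start. CYP26A1 holds the same kind of pair on the strand opposite to the gene, 90 to 75 bases before the downstream one of its 2 RefSeq starts, and so also inside the annotated gene. The window before the upstream CYP26A1 start lacks it, as do the other 3 RARB windows. Placed under each other in 30-base stretches, chr3:25428204-25428233 on the plus strand for RARB and chr10:93073796-93073825 on the minus strand for CYP26A1, the elements are these, with the matched motif in capitals.

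RARB: gggtaggGTTCACCGAAAGTTCActcgcat

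CYP26A1: acaattaGTTCACCCAAAGTTCAtctttaa

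Over the 16 capital bases the pair differs by 1 substitution, G8C, with the RARB base first and positions counted from 1 at the 5′ end of the capitals, and 15 bases are the same. The motif searched was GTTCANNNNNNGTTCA on both strands. It occurs in 17 of 35116 promoter windows, or 0.0484%, and none of the other 7 members has it. A closer pair, GTTCANNNGTTCA, which shares the half-site, occurs in 0.037% of windows and in no member. A match describes the letters in the window, not a site in use.

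With CPI-0209, most members that could be tested were higher, but which ones depended on the line. Among the 72 pairs of line and gene, 60 passed the filter on low counts, and of these 37 were called higher, 6 lower and 17 in neither direction (edgeR's quasi-likelihood test, Benjamini-Hochberg adjusted p below 0.05 over all genes of the line). A gene that passed the filter only through its treated libraries had to be higher, so these totals are a description. That holds for 8 pairs, all called higher, in which no DMSO library reached the minimum of 10 counts at the median library size. They are CRABP1 in SW780, ALDH1A1 in 639V, RARB in HT1376, T24 and VMCUB, and CYP26A1 in KU1919, SW780 and TCCSUP. Their values below describe these libraries, and the filter fixed their direction. Of the other 52 pairs, 29 were called higher. HT1197 had 5 of 6 tested members higher and 0 lower, where 11.8% of all genes were higher and 7.8% lower. HT1376 had 4 of 7 higher and 0 lower, against 23.7% and 16% of all genes. KU1919 had 5 of 9 higher and 0 lower, against 9.3% and 2.4% of all genes. In these 3 lines no member was called lower. In a bulk library, fewer cells with a transcript and less of it per cell cannot be told apart.

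SW780 had 7 of 9 members higher and 1 lower, in a line where 30.8% of all genes were higher and 30.3% lower. T24 had 2 of 6 higher and 0 lower, against 9.37% and 0.93% of all genes. In 639V, 5 of 8 were higher and 0 lower, against 22.1% and 17.1% of all genes. VMCUB had 6 of 7 higher and 0 lower, against 16.4% and 11% of all genes. Those shares rest on single libraries: genes called lower in VMCUB numbered 1698, but 3871 without DMSO replicate 3 and 297 without CPI-0209 replicate 1. In KU1919 they numbered 389, but 2375 without CPI-0209 replicate 1 and 113 without DMSO replicate 1, and in T24 144, but 31 without CPI-0209 replicate 2. TCCSUP was the line with most members down, 5 lower and 3 higher of 8, against 23% of all genes lower and 25.7% higher. Without CPI-0209 replicate 3, HT1197 kept 3 calls, and T24 had 1 call without DMSO replicate 3 and 3 without CPI-0209 replicate 3. VMCUB had 4 calls without any 1 of its CPI-0209 libraries and 7 without DMSO replicate 3.

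**Figure D1:**
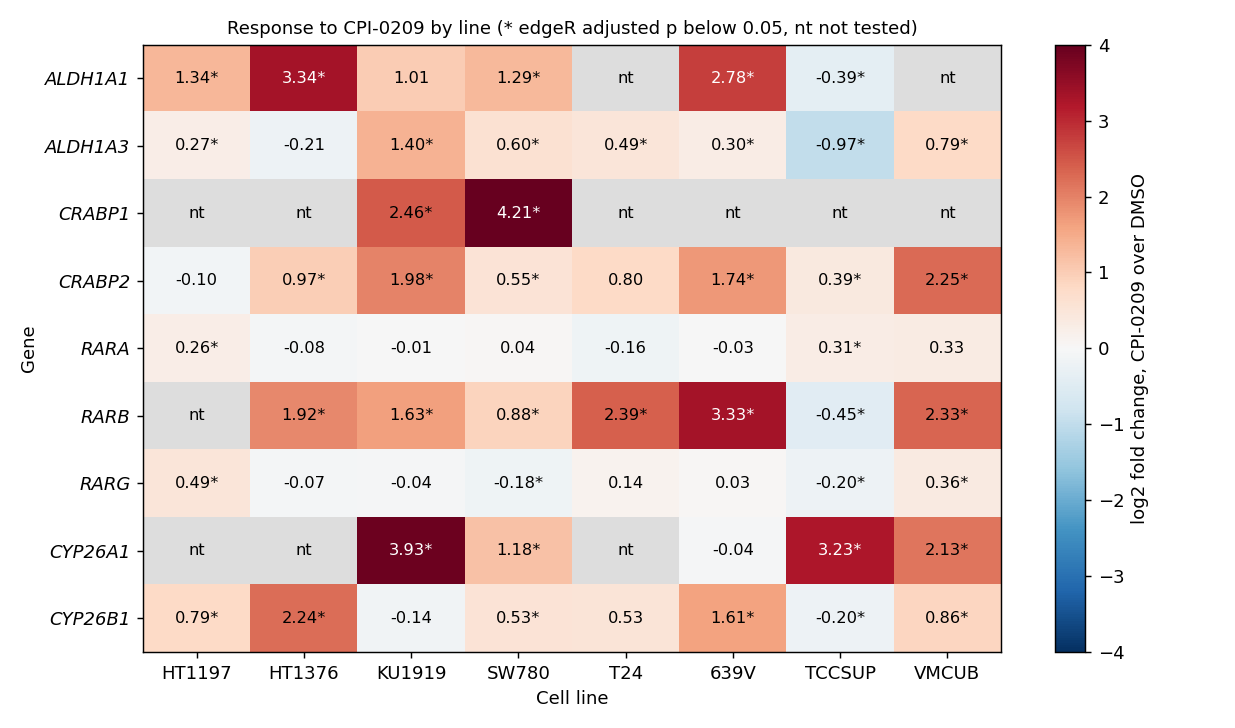
Log2 fold change of CPI-0209 over DMSO for the 9 genes (rows) in 8 lines (columns), from 3 libraries per group; a star marks an edgeR adjusted p below 0.05 and nt a gene under the count filter. Red cells are higher with CPI-0209 and blue cells lower: TCCSUP holds 5 of the 6 lower calls, and SW780 CRABP1, which passed the count filter through its treated libraries only, has the top value of 4.21.

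Of ALDH1A1 and ALDH1A3, the synthesis members followed here, the higher one per length differed between lines. ALDH1A1, a cytosolic retinal dehydrogenase often used as a stem cell marker, lies at chr9:72900662-73080442 (ENSG00000165092, minus strand). In DMSO it was a TCCSUP gene: 371 ± 9.64 CPM there, against 1.66 ± 0.136 CPM in HT1197, 0.638 ± 0.0605 CPM in SW780 and 0.397 ± 0.0835 CPM in HT1376. The other lines held 0.163 ± 0.0879 CPM (KU1919), 0.118 ± 0.0709 CPM (VMCUB), 0.0956 ± 0.0319 CPM (T24) and 0.0674 ± 0.0406 CPM (639V). The 4 highest lines each differed from the next in this order, while no step among the 4 lowest exceeded the spread of their libraries. The top line was 5506-fold above the lowest, a rough ratio that rests on 9 counts over the 3 DMSO libraries of 639V.

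With CPI-0209, ALDH1A1 was called higher in 4 of the lines where it was low and fell in TCCSUP, where it was high. HT1376 cells held 4.65, 3.87 and 3.27 CPM with CPI-0209, against 0.301, 0.451 and 0.440 CPM in DMSO, and all treated libraries were above all controls. The log2 fold change was 3.34 ± 0.22 (SE, edgeR adjusted p = 2.54e-06). In 639V the gene had 34, 29 and 18 counts with CPI-0209, against 5, 3 and 1 in DMSO. These few counts did not overlap between groups, and the direction was fixed by the filter, with a log2 fold change of 2.78 ± 0.42 (edgeR adjusted p = 0.000125). It also rose in HT1197, by 1.34 ± 0.13 on the log2 scale (edgeR adjusted p = 2.33e-06), and in SW780, by 1.29 ± 0.19 (edgeR adjusted p = 8.11e-06). In TCCSUP the treated libraries held 284, 254 and 290.5 CPM and the DMSO libraries 379.5, 361 and 373 CPM, so that all 3 treated values were lower. That fall was small beside the level, at -0.39 ± 0.06 (edgeR adjusted p = 8.32e-05). KU1919 showed a log2 value of 1.009 ± 0.43 with 9, 10 and 15 counts against 5, 5 and 8, which missed the threshold (edgeR adjusted p = 0.197), and T24 and VMCUB had too few counts to test.

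ALDH1A3, the retinal dehydrogenase known for vitamin A signalling in epithelia, lies at chr15:100877714-100916626 (ENSG00000184254, plus strand). It made up most of the summed ALDH1A1 and ALDH1A3 level per length in all DMSO groups but TCCSUP. Its DMSO level was 1016 ± 16.1 CPM in VMCUB, 746 ± 19.2 CPM in T24, 509 ± 3.92 CPM in SW780 and 343 ± 2.65 CPM in KU1919. It went down through TCCSUP at 199 ± 6.41 CPM, 639V at 20.01 ± 0.895 CPM and HT1197 at 12.5 ± 0.266 CPM, to HT1376 at 1.91 ± 0.614 CPM. All 7 neighbouring pairs in this order differed, and the ends were 532-fold apart. The gene shares 1585 exon bases with an antisense gene, AC015712.2, and use of strand in counting is not stated in the labels.

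KU1919 had the strongest ALDH1A3 response, with 814, 949 and 953.5 CPM in treated libraries against 345, 339.9 and 343 CPM in DMSO. The log2 fold change was 1.40 ± 0.11 (edgeR adjusted p = 0.000338), and it was 1.499 without CPI-0209 replicate 1, the library that stood apart. VMCUB, already the highest line, held 1626, 1786 and 1672 CPM with CPI-0209, against 1024, 997 and 1026 CPM in DMSO. That was 0.79 ± 0.07 on the log2 scale (edgeR adjusted p = 0.00054). The gene also rose in SW780 (0.60 ± 0.04, edgeR adjusted p = 6.11e-10), T24 (0.49 ± 0.08, edgeR adjusted p = 0.00871), 639V (0.30 ± 0.06, edgeR adjusted p = 0.000929) and HT1197 (0.27 ± 0.07, edgeR adjusted p = 0.01). The T24 call was lost without DMSO replicate 3 (edgeR adjusted p = 0.0513). The HT1197 call was lost without CPI-0209 replicate 3 (0.21, edgeR adjusted p = 0.0577) and in a fit of all 48 libraries together (edgeR adjusted p = 0.0861). TCCSUP went the other way. Its treated libraries held 103, 95.9 and 97.6 CPM against 206, 198 and 193.5 CPM in DMSO, a log2 fold change of -0.97 ± 0.05 (edgeR adjusted p = 6.95e-09). HT1376, the lowest line, showed no call at -0.21 ± 0.24 (edgeR adjusted p = 0.541).

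**Figure D2:**
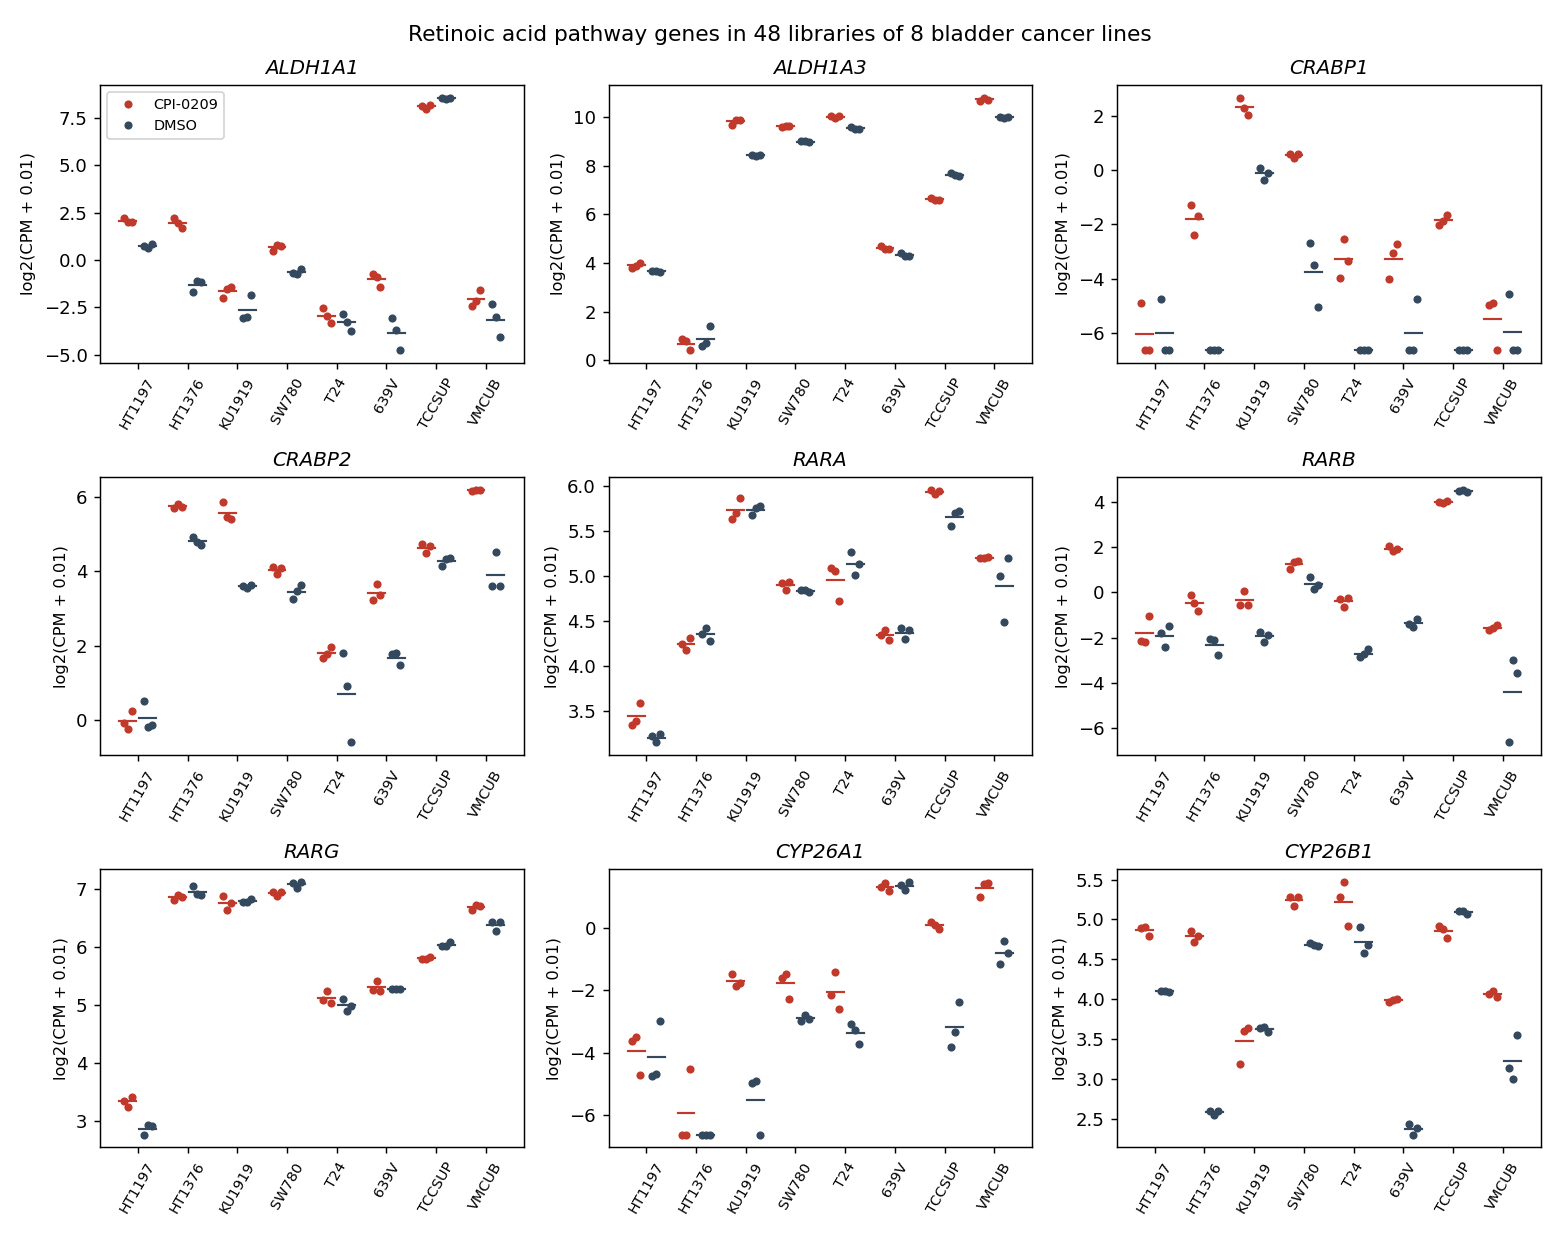
Level of each of the 9 genes in every library, as log2(CPM + 0.01), by line, with CPI-0209 (red) left of DMSO (dark); each point is 1 library and each bar the mean of 3. ALDH1A1 in TCCSUP and ALDH1A3 in TCCSUP sit below their controls with CPI-0209, while RARB in 639V and CYP26B1 in HT1376 sit far above theirs.

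The carriers rose in most lines where they could be measured. CRABP2, which delivers retinoic acid to the receptors, lies at chr1:156699606-156705816 (ENSG00000143320, minus strand). Its DMSO levels were 28.1 ± 2.27 CPM in HT1376, 19.6 ± 1.495 CPM in TCCSUP, 15.8 ± 6.37 CPM in VMCUB, 12.1 ± 0.329 CPM in KU1919 and 11.03 ± 1.37 CPM in SW780. No neighbours among these 5 lines differed. Below them came 639V at 3.23 ± 0.381 CPM, T24 at 2.00 ± 1.42 CPM and HT1197 at 1.07 ± 0.308 CPM, with steps between SW780 and 639V and between T24 and HT1197.

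VMCUB had the highest CRABP2 response, with 70.9, 73.2 and 73.1 CPM in treated libraries against 12.2, 23.2 and 12.1 CPM in DMSO. Its groups were far apart even with the high DMSO replicate 2, one of the libraries that stood apart. The log2 fold change was 2.25 ± 0.24 (edgeR adjusted p = 0.000973), and 2.61 without that library. In KU1919 treated cells held 58.1, 44.2 and 42.2 CPM, against 12.1, 11.8 and 12.4 CPM in DMSO, or 1.98 ± 0.12 (edgeR adjusted p = 0.000144). It rose by 1.74 ± 0.12 in 639V (edgeR adjusted p = 1.59e-07), by 0.97 ± 0.07 in HT1376 (edgeR adjusted p = 3.8e-06), by 0.55 ± 0.08 in SW780 (edgeR adjusted p = 1.06e-05) and by 0.39 ± 0.07 in TCCSUP (edgeR adjusted p = 0.000649). The TCCSUP call was lost in a fit of all 48 libraries together (edgeR adjusted p = 0.175). T24 gave no call in its own fit: treated libraries held 3.17, 3.44 and 3.91 CPM and DMSO libraries 3.48, 1.87 and 0.654 CPM, so the controls alone spanned 162, 81 and 20 counts. Its log2 fold change of 0.80 ± 0.47 (edgeR adjusted p = 0.423) became 1.45 without DMSO replicate 1 (edgeR adjusted p = 0.113) and 0.41 without DMSO replicate 3 (edgeR adjusted p = 0.547). HT1197 showed -0.10 ± 0.24 (edgeR adjusted p = 0.825).

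CRABP1, the relative of CRABP2 known in embryonic tissue and linked to retinoic acid breakdown, was close to silent in DMSO (ENSG00000166426, chr15:78340324-78348230, plus strand). Only KU1919 (0.911 ± 0.146 CPM) and SW780 (0.0807 ± 0.0622 CPM) had enough counts to test. In KU1919 it rose: the libraries held 236, 144 and 168 counts with CPI-0209 against 48, 33 and 28 in DMSO, a log2 fold change of 2.46 ± 0.21 (edgeR adjusted p = 0.000508), and 2.30 without CPI-0209 replicate 1. SW780 held 70, 79 and 83 counts with CPI-0209 against 5, 4 and 1 in DMSO, or 4.21 ± 0.34 (edgeR adjusted p = 3.67e-09). That pair entered the test through its treated libraries only, so its direction was fixed by the filter.

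In 3 further lines all 3 DMSO libraries had 0 CRABP1 counts and every treated library had some. HT1376 had 15, 5 and 9 counts with CPI-0209, which is at least 11.2-fold higher against a floor of 3 counts over the DMSO group. TCCSUP had 11, 7 and 13 counts and was at least 9.37-fold higher, and T24 had 2, 8 and 4 counts and was at least 4.27-fold higher. In 639V the treated libraries had 3, 6 and 7 counts against 0, 0 and 1 in DMSO, a ratio of 12.6 with a 95% counting interval of 1.96 to 529. HT1197 and VMCUB stayed at or under 3 counts in both groups. These small counts got no test, and the gene shares 469 exon bases with AC011270.2 on the other strand.

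Of the 3 receptors, RARB moved most. RARB, the receptor gene that retinoic acid itself induces and that has the element printed above before 1 of its 4 starts, lies at chr3:25174332-25597932 (ENSG00000077092, plus strand). Its DMSO level was 22.5 ± 0.813 CPM in TCCSUP, 1.31 ± 0.251 CPM in SW780 and 0.378 ± 0.0471 CPM in 639V. Below that, HT1197 had 0.266 ± 0.0881 CPM, KU1919 0.252 ± 0.0400 CPM, HT1376 0.196 ± 0.0508 CPM, T24 0.144 ± 0.0178 CPM and VMCUB 0.0624 ± 0.0577 CPM. TCCSUP and SW780 each differed from the next line, and the remaining neighbours did not.

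The 639V cells gave the highest RARB response, at 4.10, 3.55 and 3.75 CPM with CPI-0209 against 0.367, 0.337 and 0.429 CPM in DMSO. The groups did not overlap, with a log2 fold change of 3.33 ± 0.17 (edgeR adjusted p = 1.75e-09). T24 held 30, 31 and 37 counts with CPI-0209 against 6, 6 and 5 in DMSO, or 2.39 ± 0.28 (edgeR adjusted p = 0.00205). The value was 2.35 without T24 CPI-0209 replicate 3 (edgeR adjusted p = 0.00578). In HT1376 it was 1.92 ± 0.33 (edgeR adjusted p = 0.00142). RARB also rose by 1.63 ± 0.30 in KU1919 (edgeR adjusted p = 0.0134) and by 0.88 ± 0.16 in SW780 (edgeR adjusted p = 0.000126). The KU1919 call was lost without any 1 of the 3 DMSO libraries (edgeR adjusted p = 0.0558 to 0.0706). In VMCUB the counts were 14, 14 and 11 with CPI-0209 against 0, 4 and 3 in DMSO, or 2.33 ± 0.58 (edgeR adjusted p = 0.0276). Without any 1 of the VMCUB CPI-0209 libraries the adjusted p was 0.0905 to 0.0956, and without DMSO replicate 2 the log2 fold change was 2.93 (edgeR adjusted p = 0.0108). In TCCSUP, where RARB was high, treated libraries held 16.2, 15.5 and 16.7 CPM against 22.6, 23.3 and 21.7 CPM in DMSO, a log2 fold change of -0.45 ± 0.06 (edgeR adjusted p = 5.83e-05). The direction in T24, HT1376 and VMCUB was fixed by the count filter. RARB shares 28 exon bases with TOP2B on the other strand.

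RARA and RARG, the receptors expressed in many tissues, changed little. RARA (ENSG00000131759, chr17:40309192-40357643, plus strand) had DMSO levels of 53.6 ± 1.89 CPM in KU1919, 50.8 ± 3.21 CPM in TCCSUP, 35.3 ± 3.23 CPM in T24, 30.4 ± 7.34 CPM in VMCUB and 28.6 ± 0.282 CPM in SW780. It had 20.7 ± 0.944 CPM in 639V, 20.4 ± 1.011 CPM in HT1376 and 9.21 ± 0.308 CPM in HT1197. The span of 5.82-fold is the narrowest of the 7 members that no line had at 0, and neighbours differed at 3 steps, below TCCSUP, below SW780 and below HT1376. It rose in TCCSUP, which held 62.4, 60.2 and 61.6 CPM with CPI-0209 against 47.1, 52.0 and 53.1 CPM in DMSO, by 0.31 ± 0.05 (edgeR adjusted p = 0.000394). It also passed in HT1197 at 0.26 ± 0.08 (edgeR adjusted p = 0.0274), but not without CPI-0209 replicate 3 (0.18, edgeR adjusted p = 0.137), DMSO replicate 2 (edgeR adjusted p = 0.111) or DMSO replicate 3 (edgeR adjusted p = 0.0529). That call was also lost with DESeq2 (adjusted p = 0.1) and in the fit of all 48 libraries (edgeR adjusted p = 0.271). The other 6 lines lay between -0.16 and 0.33. SW780, at 0.04, was called at 0.24 when plain library totals were used (edgeR adjusted p = 0.00038). The highest of these, VMCUB at 0.33 ± 0.18 (edgeR adjusted p = 0.193), was called without DMSO replicate 3 (0.45, edgeR adjusted p = 0.0315) and had 0.14 without DMSO replicate 2 (edgeR adjusted p = 0.146). RARA shares 556 exon bases with the antisense gene RARA-AS1.

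RARG (ENSG00000172819, chr12:53210567-53232980, minus strand), the receptor known from stratified epithelia, had DMSO levels of 135 ± 5.18 CPM in SW780, 124 ± 7.02 CPM in HT1376, 111 ± 2.25 CPM in KU1919 and 83.2 ± 5.20 CPM in VMCUB. TCCSUP had 65.6 ± 1.84 CPM, 639V 38.6 ± 0.0369 CPM, T24 32.0 ± 2.14 CPM and HT1197 7.31 ± 0.449 CPM. All neighbours but SW780 and HT1376 differed. RARG was called in opposite directions: higher in HT1197 (0.49 ± 0.08, edgeR adjusted p = 0.000304) and VMCUB (0.36 ± 0.08, edgeR adjusted p = 0.0161), and lower in TCCSUP (-0.20 ± 0.05, edgeR adjusted p = 0.00422) and SW780 (-0.18 ± 0.04, edgeR adjusted p = 0.00161). The VMCUB call was lost without any 1 of its CPI-0209 libraries (edgeR adjusted p = 0.0606 to 0.0806). The SW780 fall depends on scaling, since plain library totals shift the median of all genes there by 0.20 and give RARG 0.02 (edgeR adjusted p = 0.681). All 4 calls were under 1.5-fold, and the other 4 lines lay between -0.07 and 0.14.

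Both clearance enzymes were called higher in SW780 and VMCUB, and at most 1 of them in each other line, where CYP26A1 often had too few counts to test. CYP26B1, the retinoic acid hydroxylase known for setting local retinoic acid limits in skin and germ cells, lies at chr2:72129238-72148038 (ENSG00000003137, minus strand). Its DMSO levels were 34.1 ± 0.606 CPM in TCCSUP, 26.5 ± 3.17 CPM in T24, 25.7 ± 0.272 CPM in SW780, 17.1 ± 0.103 CPM in HT1197 and 12.3 ± 0.287 CPM in KU1919. VMCUB had 9.49 ± 1.99 CPM, HT1376 5.97 ± 0.101 CPM and 639V 5.17 ± 0.244 CPM. All neighbours but T24 and SW780 differed.

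HT1376 and 639V, the lines with least CYP26B1 in DMSO, had the highest responses. HT1376 held 1104, 741 and 842 counts with CPI-0209 (27.7 ± 1.34 CPM) against 241, 208 and 219 in DMSO (5.97 ± 0.101 CPM), or 2.24 ± 0.07 (edgeR adjusted p = 2.49e-08). In 639V the treated libraries held 900, 874 and 793 counts (15.8 ± 0.188 CPM) against 250, 219 and 194 in DMSO, or 1.61 ± 0.07 (edgeR adjusted p = 3.02e-10). The gene also rose in VMCUB (0.86 ± 0.15, edgeR adjusted p = 0.00729), HT1197 (0.79 ± 0.05, edgeR adjusted p = 3.17e-08) and SW780 (0.53 ± 0.05, edgeR adjusted p = 4.02e-08). T24 treated libraries held 38.9, 44.3 and 30.2 CPM against 30.0, 23.9 and 25.6 CPM in DMSO, and the log2 fold change of 0.53 ± 0.17 missed the threshold (edgeR adjusted p = 0.121). It passed at 0.69 without T24 CPI-0209 replicate 3, the library that stood apart (edgeR adjusted p = 0.009). TCCSUP, the highest line, fell by 0.20 on the log2 scale (SE 0.06, edgeR adjusted p = 0.0131), a call lost without CPI-0209 replicate 3 (edgeR adjusted p = 0.0713) and in the fit of all 48 libraries (edgeR adjusted p = 0.0685). KU1919 gave -0.14 ± 0.15 (edgeR adjusted p = 0.598).

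CYP26A1, the hydroxylase gene that retinoic acid itself induces and that has the element printed above before 1 of its 2 starts, was low in every line (ENSG00000095596, chr10:93073475-93077890, plus strand). Its DMSO level was 2.596 ± 0.230 CPM in 639V, 0.582 ± 0.149 CPM in VMCUB and 0.124 ± 0.0102 CPM in SW780. It was 0.111 ± 0.0652 CPM in TCCSUP, 0.0884 ± 0.0213 CPM in T24, 0.0577 ± 0.0511 CPM in HT1197 and 0.0149 ± 0.0130 CPM in KU1919, with 0 counts in HT1376. Both 639V and VMCUB differed from the next line, and the rest did not.

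TCCSUP, where other members fell, held 53, 29 and 42 CYP26A1 counts with CPI-0209 against 2, 3 and 7 in DMSO, a log2 fold change of 3.23 ± 0.35 (edgeR adjusted p = 6.96e-06). The value was 3.81 without DMSO replicate 3, the library with 7 counts. VMCUB held 92, 116 and 85 counts against 14, 26 and 23, or 2.13 ± 0.23 (edgeR adjusted p = 0.00101). KU1919 held 13, 8 and 12 counts with CPI-0209 against 1, 1 and 0 in DMSO, a ratio of 18.1 with a 95% counting interval of 4.63 to 156 (edgeR adjusted p = 0.00374). SW780 held 15, 21 and 11 counts against 4, 7 and 6, or 1.18 ± 0.40 (edgeR adjusted p = 0.0164). That call was lost without DMSO replicate 3, CPI-0209 replicate 1 or CPI-0209 replicate 2 (edgeR adjusted p = 0.0503 to 0.0839), and with DESeq2 (adjusted p = 0.0976). The count filter fixed the direction in TCCSUP, KU1919 and SW780, but not in VMCUB. In 639V, the line with most CYP26A1, treated libraries held 2.50, 2.75 and 2.32 CPM against 2.62, 2.36 and 2.82 CPM in DMSO, with -0.04 ± 0.12 on the log2 scale (edgeR adjusted p = 0.826). T24 had 8, 18 and 7 counts with CPI-0209 against 5, 4 and 2 in DMSO, too few to pass the filter. The gene shares 750 exon bases with AL358613.3 on the same strand, so part of its reads cannot be told apart from that gene.

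RARB and CYP26A1, the pair with the paired half-sites, did not move alike by line. In 639V RARB was 10.1-fold higher with CPI-0209 and CYP26A1 had a log2 fold change of -0.04. In TCCSUP CYP26A1 was 9.37-fold higher and RARB fell by 0.45 on the log2 scale. In KU1919, SW780 and VMCUB both were called higher, though all of these but RARB in KU1919 and SW780 and CYP26A1 in VMCUB had their direction fixed by the count filter. These 2 genes are set side by side as values, and their difference was not tested.

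TCCSUP was the line where the members fell: ALDH1A1, ALDH1A3, RARB, RARG and CYP26B1 were lower with CPI-0209, and CRABP2, RARA and CYP26A1 higher. The 5 genes that fell had DMSO levels of 34.1 to 371 CPM in TCCSUP except RARB at 22.5 CPM. In no line but TCCSUP was ALDH1A1, ALDH1A3, RARB or CYP26B1 called lower. Of the 11 fibroblast markers, all were present in TCCSUP at 1 CPM or more. There 6 were called higher and 1 lower, against 25.7% and 23% of all genes, and their part in these changes was not tested.

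The line itself was then used as the replicate, on counts summed to 16 line and treatment totals. Over 8 lines 3 members were called higher and 0 lower, where 7.31% of all genes were higher and 4.41% lower. CRABP1 had a log2 fold change of 3.59 ± 0.54 (SE, edgeR adjusted p = 0.0148), CYP26A1 1.63 ± 0.45 (edgeR adjusted p = 0.0471) and CRABP2 1.06 ± 0.27 (edgeR adjusted p = 0.0363). CRABP1 rests on few counts, with DMSO sums of 109 in KU1919, 10 in SW780 and at most 1 elsewhere. Its treated sums were 548 in KU1919, 232 in SW780, 31 in TCCSUP, 29 in HT1376, 16 in 639V and 14 in T24. CRABP1 thus passed the filter of this fit mostly through treated sums, which favours a higher call. Its call, and the count of 3 members that includes it, are a description. It passed the count filter in only 5 of 11 fits without 1 line or replicate number, and was called in those 5. In the rest, such as the fit without KU1919, it was not tested. The CRABP2 call was lost when any 1 line but HT1197 was left out (edgeR adjusted p = 0.0551 to 0.0791), and without replicate number 3 (edgeR adjusted p = 0.06). The CYP26A1 call was lost when any 1 line but 639V was left out (edgeR adjusted p = 0.0528 to 0.104). Leaving out any 1 replicate number also lost the CYP26A1 call (edgeR adjusted p = 0.0514 to 0.0827). RARB at 1.46 ± 0.42 (edgeR adjusted p = 0.0526) and ALDH1A1 at 1.29 ± 0.40 (edgeR adjusted p = 0.0646) missed the threshold. Both passed it without TCCSUP, at 1.79 (edgeR adjusted p = 0.0403) and 1.64 (edgeR adjusted p = 0.047). CYP26B1 had 0.75 ± 0.26 (edgeR adjusted p = 0.0837), ALDH1A3 0.34 ± 0.22 (edgeR adjusted p = 0.312), RARA 0.06 ± 0.07 (edgeR adjusted p = 0.541) and RARG 0.05 ± 0.08 (edgeR adjusted p = 0.707).

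Whether a response differed between lines was tested directly with the 7 line by treatment terms on all 48 libraries. All 9 members passed, where 58.7% of all genes did. The adjusted p of edgeR's F test was lowest for ALDH1A3 (2.1e-18), ALDH1A1 (8.64e-17), CYP26B1 (1.78e-16) and RARB (7.06e-14), followed by CYP26A1 (5.96e-08), RARG (1.19e-07) and CRABP2 (3.12e-07). CRABP1 (0.00279) and RARA (0.0197) were closest to the threshold. CRABP1 missed it without the libraries numbered 2 (0.065) or 3 (0.054), and RARA without those numbered 1 (0.315) or without TCCSUP (0.0657). Between lines in DMSO all 9 members differed, as did 97.5% of all genes. Of the 63 neighbouring pairs in the 9 orders, 34 differed. Over all genes and all 28 line pairs 72.2% differed, which is no baseline for neighbours, since they are the closest lines in each order.

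Which member led each family sum was then compared per kilobase of exon, since levels of different genes are comparable only per length. The sums hold only the members followed here, so any other gene of the ALDH1A and CYP26 families was not counted. In HT1376 ALDH1A1 made up 83.1 ± 0.89% of the ALDH1A sum with CPI-0209, against 30.2 ± 5.3% in DMSO. The leading synthesis member of HT1376 was thus ALDH1A1 in treated and ALDH1A3 in DMSO libraries. In HT1197 the ALDH1A1 share was 36.1 ± 3.6% with CPI-0209 and 21.2 ± 1.6% in DMSO, and in TCCSUP 85.0 ± 0.76% and 79.1 ± 0.50%. KU1919, SW780, T24, 639V and VMCUB drew at least 96.1% of the sum from ALDH1A3 in both groups. No test was run on these shares. The ALDH1A sum itself was highest in VMCUB, at 294 ± 14.3 CPM per kilobase with CPI-0209 and 176 ± 2.78 in DMSO. It was lowest in HT1376, at 1.66 ± 0.286 with CPI-0209 and 0.470 ± 0.125 in DMSO. Only TCCSUP of the 8 lines had a lower mean sum in treated cells, 114 ± 7.19 against 165 ± 4.04 in DMSO.

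Among the receptors, RARB made up 7.89 ± 0.83% of the RAR sum per kilobase in treated 639V cells, against 0.850 ± 0.096% in DMSO. In TCCSUP it made up 15.4 ± 0.35% with CPI-0209 and 20.6 ± 1.1% in DMSO, and RARA took the first place there with 46.0 ± 0.42% against 36.2 ± 1.3%. RARG led in HT1376, KU1919, SW780, 639V and VMCUB in both groups, with at least 59.2%, and RARA led in HT1197. In T24 RARG made up 50.02 ± 2.6% and RARA 48.5 ± 2.7% with CPI-0209, against 45.4 ± 0.59% for RARG and 54.3 ± 0.62% for RARA in DMSO. The CYP26 sum came mostly from CYP26B1. It was closest to even in 639V, where CYP26A1 gave 21.2 ± 1.5% with CPI-0209 and 45.8 ± 1.7% in DMSO, as CYP26B1 rose and CYP26A1 was not called. Taken per length of the longest transcript in place of all exons, these shares were 25.2 ± 1.7% with CPI-0209 and 51.4 ± 1.7% in DMSO. In VMCUB the CYP26A1 share was 20.02 ± 2.9% with CPI-0209 and 9.63 ± 3.4% in DMSO. CRABP2 made up at least 89.6% of the CRABP sum in every group, and the CRABP1 share of SW780 was 8.82 ± 0.063% with CPI-0209 and 0.860 ± 0.73% in DMSO.

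**Figure D3:**
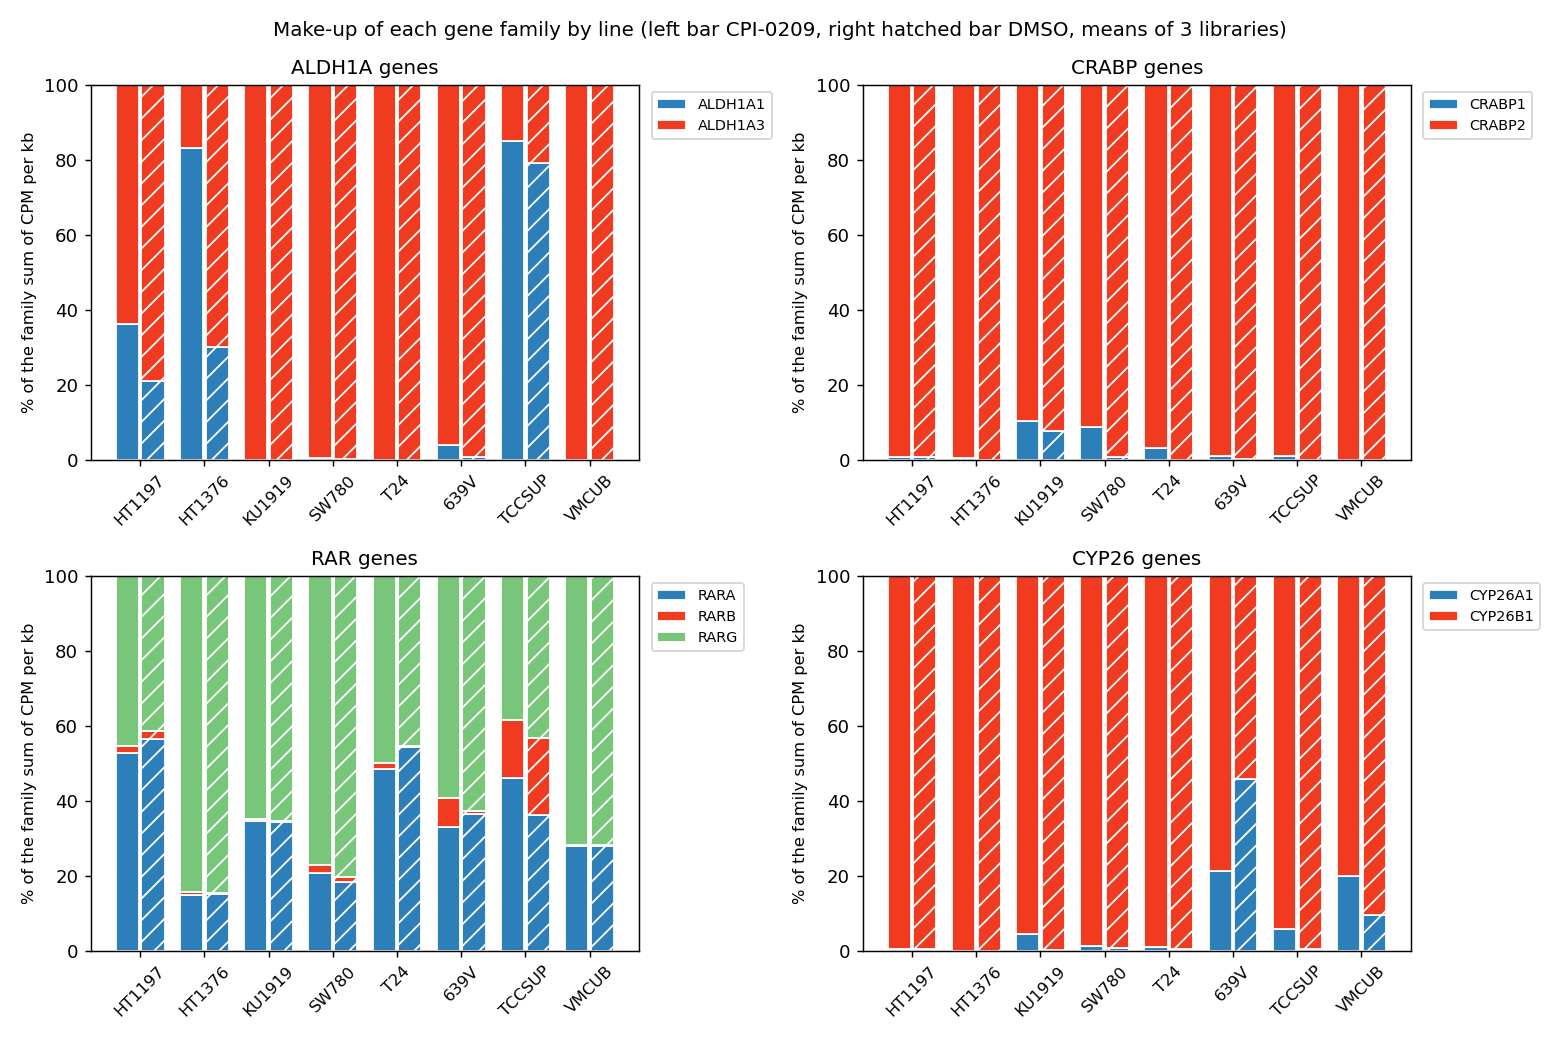
Share of each member in the CPM per kilobase summed over the members of its family, in percent, by line. The left bar of each pair is CPI-0209 and the right, hatched bar DMSO, both means of 3 libraries. In HT1376 the ALDH1A bar is mostly ALDH1A1 with CPI-0209 (83.1%) and mostly ALDH1A3 in DMSO, while the CYP26 bars are almost all CYP26B1 outside 639V and VMCUB.

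Upstream of the members, 28 genes of retinol handling and first oxidation were counted. The number called higher was 2 of 17 tested in T24, 3 of 15 in HT1197, 4 of 20 in VMCUB, 5 of 20 in KU1919, 5 of 19 in 639V, 6 of 20 in TCCSUP, 8 of 20 in HT1376 and 9 of 21 in SW780. Of all genes 9.37% were higher in T24, 11.8% in HT1197, 16.4% in VMCUB, 9.3% in KU1919, 22.1% in 639V, 25.7% in TCCSUP, 23.7% in HT1376 and 30.8% in SW780. Between 0 and 6 were called lower per line, most in SW780 with 6 of 21, where 30.3% of all genes were lower. The list median ran from -0.08 in TCCSUP to 0.39 in KU1919 on the log2 scale, with all genes between -0.01 and 0.04. Genes of this list, of the lists that follow and of the marker lists were not checked for passing the filter through treated libraries only. Such a gene has to be higher, so these counts and rises are a description. RBP4, the serum carrier of retinol, rose in 5 of 6 lines tested and over all lines by 1.78 ± 0.31 (edgeR adjusted p = 0.0158). Its DMSO means were 0.099 CPM in VMCUB, 0.125 CPM in 639V and 0.1665 CPM in T24, against 1.21 CPM in KU1919. In TCCSUP it held 25.1 ± 0.682 CPM with CPI-0209 and 12.1 ± 1.31 CPM in DMSO. RDH12, a retinal reductase, rose in 5 of 6 lines and by 1.34 ± 0.21 over all (edgeR adjusted p = 0.0148). AKR1B10, another retinal reductase, rose in 4 lines but fell in TCCSUP, to 149 ± 11.97 CPM with CPI-0209, against 333 ± 12.6 CPM in DMSO (-1.12 ± 0.06, edgeR adjusted p = 6.35e-09). SDR16C5, a retinol dehydrogenase, was 3.61 ± 0.15 higher in HT1376 on the log2 scale (edgeR adjusted p = 1.02e-07). RBP7, a cellular retinol-binding protein, rose in 3 of 6 lines. STRA6, the membrane receptor for the retinol carrier, rose in 3 of 7, with 48.3 ± 0.788 CPM in treated VMCUB cells and 30.9 ± 4.09 CPM in DMSO.

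Of the 6 other oxidation and clearance enzymes, 1 to 4 were testable per line, 0 to 3 were higher and 0 lower. Higher were 1 of 3 in HT1197, 1 of 1 in HT1376, 2 of 3 in KU1919 and 3 of 4 in SW780. In T24 it was 1 of 2, in 639V 2 of 2, and in TCCSUP and VMCUB 0 of 2. Per line, 9.3% to 30.8% of all genes were higher and 0.93% to 30.3% lower. CYP2S1, a cytochrome P450 reported to oxidise retinoic acid, rose in 6 of 8 lines. In HT1376 it held 8.15 ± 0.173 CPM with CPI-0209 and 0.221 ± 0.0940 CPM in DMSO, or 5.19 ± 0.20 on the log2 scale (edgeR adjusted p = 7.46e-08). ALDH8A1, an enzyme that can oxidise 9-cis-retinal, rose in 639V (1.38 ± 0.36, edgeR adjusted p = 0.00817). CYP3A4 rose in KU1919 and SW780 and CYP2C8 in SW780, with group means of at most 1.37 CPM.

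The 26 receptor partners, co-regulators and carriers were mixed, with 2 to 10 higher and 0 to 7 lower per line and medians from -0.15 in KU1919 to 0.43 in VMCUB. Higher and lower calls were 3 and 5 of 23 in HT1197, against 11.8% and 7.8% of all genes. HT1376 had 4 and 5 of 23, against 23.7% and 16%, and KU1919 2 and 1 of 24, against 9.3% and 2.4%. SW780 had 8 and 7 of 23, against 30.8% and 30.3%, and T24 3 and 0 of 23, against 9.37% and 0.93%. In 639V it was 10 and 2 of 23, against 22.1% and 17.1%. TCCSUP had 9 and 6 of 24, against 25.7% and 23%, and VMCUB 8 and 2 of 24, against 16.4% and 11%. The 2 genes of this list called at 2-fold or more in most lines, 5 each, were receptors of the ROR family. RORB, known from the retina and the circadian system, rose in all 6 lines tested and by 2.36 ± 0.41 over all lines (edgeR adjusted p = 0.0158). Its DMSO means were 0.0398 CPM in 639V, 0.0435 CPM in T24, 0.0454 CPM in SW780, 0.144 CPM in KU1919 and 1.02 CPM in VMCUB. In TCCSUP it held 19.1 ± 0.328 CPM with CPI-0209 and 2.699 ± 0.655 CPM in DMSO. RORA rose in 6 of 8 lines, by 1.22 ± 0.22 over all (edgeR adjusted p = 0.017). FABP5, which carries retinoic acid to PPARD in place of CRABP2, rose in 4 lines and fell in SW780 (-0.50 ± 0.04, edgeR adjusted p = 3.02e-09). NR2F1 rose in 4 lines and fell in 639V, and PPARG, a driver of urothelial differentiation, rose in 4 and fell in 3.

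Among 48 genes known as retinoic acid targets, the number called higher was 6 of 35 tested in HT1197, 9 of 37 in T24, 12 of 39 in KU1919, 15 of 38 in TCCSUP, 16 of 36 in 639V, 19 of 33 in HT1376, 19 of 39 in SW780 and 19 of 37 in VMCUB. All genes were higher at shares of 11.8% in HT1197, 9.37% in T24, 9.3% in KU1919, 25.7% in TCCSUP, 22.1% in 639V, 23.7% in HT1376, 30.8% in SW780 and 16.4% in VMCUB. Lower calls numbered 2 to 12 per line, most in 639V with 12 of 36 and TCCSUP with 11 of 38, where 17.1% and 23% of all genes were lower. The median log2 fold change ran from 0.01 in TCCSUP to 0.52 in HT1376. RET, a receptor tyrosine kinase of kidney and nerve development, rose in 7 of 7 lines tested and by 2.94 ± 0.45 over all (edgeR adjusted p = 0.0148). Its DMSO means were 0.0724 CPM in HT1376, 0.186 CPM in 639V, 0.2315 CPM in TCCSUP and 0.266 CPM in HT1197, and at least 0.894 CPM in the other lines tested. It reached 21.3 ± 2.52 CPM in treated T24 cells, against 2.11 ± 0.291 CPM in DMSO. DLX3, a homeobox factor of epidermis, rose in 7 of 8 lines (2.03 ± 0.43 over all, edgeR adjusted p = 0.0242). TBX1, a T-box factor of pharyngeal development, rose in 7 and fell in 639V (1.197 ± 0.24 over all, edgeR adjusted p = 0.023). ICAM1, an adhesion molecule, rose in 5 and fell in TCCSUP, CDX2, an intestinal homeobox factor, rose in 3 of 5, and GBX2 rose in 2 and fell in 639V. The 3 CDX2 rises started from DMSO means of 0.0198 CPM in TCCSUP, 0.0269 CPM in HT1376 and 0.176 CPM in SW780. Many of these genes are also known as Polycomb targets, and whether that bears on these changes was not tested.

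The genes whose level followed each member most closely over the 16 group means, among 16119 genes, were searched as a description by Pearson's r of mean log2(CPM + 1). Group means of 1 line share that line, so the r values mostly rank lines. ALDH1A1 was most like KRT81 (r = 0.984) and DCN (0.982). RARB was most like TSHZ2 (0.978) and EBF1 (0.954). CRABP1 was most like JPH3 (0.990) and ANO5 (0.988), ALDH1A3 most like CYBA (0.951) and WDR72 (0.949), and RARA most like SLC41A1 (0.919) and HTR7 (0.913). RARG was most like ERF (0.912) and EFNB1 (0.895), and EFNB1 was also second for CRABP2 (0.866) after VDR (0.881). CYP26A1 was most like ZNF252P (0.903) and CD207 (0.897), and CYP26B1 most like RBPMS (0.820) and EN2 (0.813). Between the members themselves, ALDH1A1 and RARB had r = 0.884 and CRABP2 and RARG r = 0.829, and the other 34 pairs lay between -0.325 and 0.648.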

How the data were processed

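The authors deposited 1 table of whole-number counts, with 48 library columns. STAR 2.7.3a, RSEM 1.3.1 and hg38 are named in the submitters' processing notes. The sources used here do not state how whole counts arose from RSEM's estimates, or whether strand was used. No row lacked a gene (0 of 35535). A table of gene names gave symbols for 35414 IDs, and positions and lengths from GENCODE 29 (GRCh38). The 9 members and all gene lists were chosen with earlier results of these data known.

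Each line was tested on its 6 libraries with edgeR 4.0.16 (R 4.3.3): filterByExpr, TMM, robust quasi-likelihood fit, Benjamini-Hochberg threshold 0.05 over all genes passing the filter. The fit across lines used 16 sums with line and treatment as terms, the difference between lines 7 interaction terms on 48 libraries, and DMSO levels 24 libraries. An SE is the log2 fold change divided by the root of F. Printed CPM use TMM sizes over all libraries. Counting intervals and floors (3 counts, 95%) cover counting error only. Steps were tested on simulated data. Alternatives were DESeq2 1.42.0, other scalings, no filter, 1 fit of all libraries, a replicate block, and leaving out each library or line. Fits without TCCSUP, and without T24 and VMCUB, of the difference between lines were added after seeing the data.

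Replicate numbers are shared between groups, but same-numbered libraries did not deviate together (correlations -0.439 to 0.259), so no block was used. Named genes are the members, EZH2, up to 6 genes per pathway list called at 2-fold or more in most lines (ties by the p over all lines), and the 2 genes most correlated with each member, among those with at least 1 CPM. Marker lists are given as counts and sums.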

Additional observations from a re-analysis of the deposited data

Results flagged for a closer look

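In DMSO, 4 members had 1 line far above the others on the scale log2(mean CPM + 1). ALDH1A1 in TCCSUP stood at 8.54, RARB in TCCSUP at 4.56, CYP26A1 in 639V at 1.85 and CRABP1 in KU1919 at 0.93. Of the 17 sets of 8 lines examined in this way, chance marks about 1 in 20.

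The response to CPI-0209 differed between lines for every member, by the adjusted p of edgeR's F test: ALDH1A3 2.1e-18, ALDH1A1 8.64e-17, CYP26B1 1.78e-16, RARB 7.06e-14, CYP26A1 5.96e-08, RARG 1.19e-07, CRABP2 3.12e-07, CRABP1 0.00279 and RARA 0.0197. The share of all genes that differ in this test is 58.7%.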

How the results depend on the processing

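The replicate block gave 1 member higher in T24 (ALDH1A3 was lost, edgeR adjusted p = 0.107), 1470 genes lower in HT1376 and 26 lower in T24; T24 CPI-0209 replicate 3 correlated best with DMSO replicate 2 (0.617).

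With all 48 libraries in 1 fit, HT1197 had 3 members, 1063 genes higher and 199 lower, KU1919 2601 and 1995, T24 6 members, 2762 and 1582, 639V 1366 lower and VMCUB 3880 lower. With library totals, genes lower numbered 685 in HT1197, 90 in T24, 1655 in 639V, 826 in VMCUB and 110 over all lines. SW780 then had 8499 higher, 2839 lower and 0 members lower, and medians moved by 0.201. Signs turned for RARA (0.050) and RARG (0.020) in KU1919, RARG (0.021) in SW780, and RARA (0.022) and CYP26A1 (0.011) in 639V. DESeq2 gave 834 lower in KU1919, 576 in T24 and 2929 in VMCUB, and over all lines 6 members, 2363 higher and 2108 lower. With no filter, 1 member was higher and 386 genes lower over all lines. Calls were gained in the fit of all 48 libraries for ALDH1A1 in KU1919 (edgeR adjusted p = 0.0452), CRABP2 (0.049) and CYP26B1 (0.000133) in T24 and RARA in VMCUB (0.0236). Over all lines DESeq2 also called ALDH1A1 (adjusted p = 0.00233), RARB (0.00151) and CYP26B1 (0.0189), library totals called RARB (edgeR adjusted p = 0.049), and no filter lost CRABP2 (0.0629) and CYP26A1 (0.0578). The RARA and RARG levels per length moved with the longest transcript as length.

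Leaving out 1 library gave 3 to 5 members and 709 to 1130 genes lower in HT1197, 1587 to 3198 lower in HT1376, 858 to 3047 higher and 113 to 2375 lower in KU1919, 1 to 3 members, 905 to 1677 higher and 31 to 188 lower in T24, and 1475 to 3807 higher and 297 to 3871 lower in VMCUB. Over all lines, leaving out a line or number gave 0 to 3 members, 483 to 1228 higher and 107 to 739 lower. Signs turned within -0.24 to 0.18 (HT1197 CRABP2), -0.37 to 0.063 (HT1376 ALDH1A3), -0.091 to 0.076 (KU1919 RARA), -0.068 to 0.002 (KU1919 RARG), -0.24 to 0.018 (KU1919 CYP26B1), -0.017 to 0.048 (639V RARG), -0.11 to 0.023 (639V CYP26A1) and -0.001 to 0.093 (RARG over all lines). The cause was not tested. Depth limits CRABP1 and CYP26A1, which have few counts in most lines.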
